A study of Mus musculus with 6 samples.

Results

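The transcripts of 9 pancreatic islet and duct genes were followed in peritoneal ECs (endothelial cells, the lining of blood vessels) of mice given PD fluid (peritoneal dialysis fluid) or saline. The members were chosen by gene symbol and are 6 islet hormone genes (Ins1, Ins2, Gcg, Sst, Ppy and Iapp) and 3 genes of pancreatic progenitor and duct cells (Pdx1, Sox9 and Cftr). Each of the 9 symbols was found on a single row of the 22183 genes listed in the deposited count table. The series holds 3 saline mice and 3 PD fluid mice, all WT, with a separate RNA sequencing library for each mouse. Treatment lasted 6 weeks. The animals were male C57BL/6J mice, 8 to 10 weeks old, that were injected every day, into the peritoneal cavity, with high-glucose Dianeal PD fluid or with saline. By the labels, CD31+ cells were isolated from peritoneal tissue with magnetic beads, while the supplementary methods describe fluorescence-activated sorting of CD31+ CD45- cells from digested mesentery, the membrane that carries the vessels of the small intestine. The mesentery lies beside the pancreas, and islet and duct cells were not targets of the sort.

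Islets are clusters of hormone-producing cells scattered through the exocrine pancreas. Beta cells make insulin (Ins1 and Ins2, the 2 mouse insulin genes) and co-secrete amylin (Iapp), alpha cells make glucagon (Gcg), delta cells make somatostatin (Sst), and PP cells make pancreatic polypeptide (Ppy). Duct cells carry the digestive juice and secrete bicarbonate through the chloride channel CFTR. The transcription factor PDX1 specifies the early pancreas and maintains beta cells, and SOX9 marks pancreatic progenitors and adult ducts and is also used in cartilage, intestinal crypts and fibroblasts. The acinar cells that fill the rest of the organ make digestive enzymes.

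RNA of other cell types was present in the libraries and differed between the groups. Total counts were 21973426 to 26374292 per mouse. The 12 endothelial markers summed to 1184 to 1219 CPM (counts scaled to library size by TMM, edgeR's normalization) in saline mice and 1956 to 2109 CPM in PD fluid mice. The transcript of CD45 (Ptprc), which the sort of CD45- cells should leave out, averaged 2372 ± 127 CPM under saline and 1472 ± 63.6 CPM under PD fluid (SD over 3 mice each). In bulk RNA a larger number of cells of a type and more RNA per cell cannot be told apart. Of 14005 genes that passed edgeR's filter on low counts, 8246 were called, or 58.9% (edgeR's quasi-likelihood test, Benjamini-Hochberg adjusted p under 0.05). Of the tested genes, 31.1% were called higher and 27.8% lower in PD fluid mice.

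The sequences before the start sites of 4 hormone genes are shown. Ppy and Gcg had more reads in every PD fluid mouse than in any saline mouse, and Ins1 and Iapp had none. Sst, which is not printed, was also read in every PD fluid mouse, so the hormones do not fall into 2 clear kinds. RefSeq promoters on GRCm38.p6 were matched for 7 of the 9 members (Ins1, Gcg, Sst, Ppy, Iapp, Pdx1 and Cftr). Each sequence below is the 250 bases before the RefSeq start, 5′ to 3′ on the strand of the gene, and capitals mark 3 motifs on either strand. These are the TATA box TATAAA, the core TAAT that many homeodomain factors such as PDX1 bind, and GCCATCTG, an E-box of the insulin promoters. Where 2 matches overlapped, as they did in Iapp, the capitals run together.
Ppy, chr11:102101320-102101569, minus strand: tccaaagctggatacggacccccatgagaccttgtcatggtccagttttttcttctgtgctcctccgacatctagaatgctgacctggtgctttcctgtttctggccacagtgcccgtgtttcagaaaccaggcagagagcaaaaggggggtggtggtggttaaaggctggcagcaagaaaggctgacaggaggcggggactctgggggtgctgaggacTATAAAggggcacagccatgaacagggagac
Gcg, chr2:62483654-62483903, minus strand: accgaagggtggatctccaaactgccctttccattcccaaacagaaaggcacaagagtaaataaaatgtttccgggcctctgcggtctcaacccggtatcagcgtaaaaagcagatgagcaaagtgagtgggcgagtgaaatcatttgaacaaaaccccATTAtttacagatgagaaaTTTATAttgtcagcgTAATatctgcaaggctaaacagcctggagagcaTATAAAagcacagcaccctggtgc
Ins1, chr19:52264047-52264296, plus strand: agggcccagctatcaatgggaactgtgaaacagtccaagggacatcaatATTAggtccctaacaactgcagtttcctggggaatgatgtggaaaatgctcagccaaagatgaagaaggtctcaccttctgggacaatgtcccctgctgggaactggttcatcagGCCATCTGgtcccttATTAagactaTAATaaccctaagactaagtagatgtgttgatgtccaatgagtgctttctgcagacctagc
Iapp, chr6:142298175-142298424, plus strand: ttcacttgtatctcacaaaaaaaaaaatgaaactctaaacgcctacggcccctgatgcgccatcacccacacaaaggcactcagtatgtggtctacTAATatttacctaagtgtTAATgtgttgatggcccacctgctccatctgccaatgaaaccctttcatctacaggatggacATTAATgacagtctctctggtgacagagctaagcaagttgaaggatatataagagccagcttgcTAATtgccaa
Ppy had 1 TATA box and no TAAT, and Gcg had 2 of each. Ins1 had 3 TAAT cores and 1 GCCATCTG, and Iapp had 5 TAAT cores. Sst had 1 TAAT core and, like Ins1 and Iapp, no TATAAA, so reads were also counted for a hormone gene without TATAAA in these bases. Whether the motif goes with being read was not tested. Of 32851 RefSeq promoters of the same 250 bases, 12.4% held TATAAA, 54.9% held TAAT and 1.11% held GCCATCTG on either strand. A match describes these letters and is not evidence that a factor was bound.

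No insulin or amylin read was counted in any mouse. Ins1 was at 0 in saline mice 1, 2 and 3 and at 0 in PD fluid mice 1, 2 and 3, and the same held for Ins2 and for Iapp. These 3 members were therefore below detection, where detection was set at more than 3 counts in a mouse. Of all genes listed, 20.2% were at 0 in all 6 mice. In a single library, a count of 0 allows up to 3 counts, or 0.11 to 0.138 CPM. Over the 144447219 counts of all 6 mice it allows up to 0.0207 CPM, which covers counting error only. Of 1013 distinct stretches of 50 bases in the Ins1 transcripts of GENCODE M21, 7 also occur without a mismatch in Ins2. Any differing base removes such a match, so this does not measure how alike the 2 insulin transcripts are.

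Pancreatic polypeptide had the most reads of the 6 hormones. Ppy (ENSMUSG00000017316, chr11:102099930-102101319 on GRCm38, minus strand) had 0, 4 and 0 counts in saline mice 1, 2 and 3 and 8, 36 and 29 counts in PD fluid mice 1, 2 and 3. All 4 saline counts came from saline mouse 2, and every PD fluid mouse was above every saline mouse. The mean level was 0.0615 ± 0.106 CPM under saline and 1.04 ± 0.652 CPM under PD fluid (SD over 3 mice each). The pooled counts, 73 against 4, gave a ratio of 17.8 (95% exact binomial interval 6.67 to 67.2, counting error only). In a two-sided exact permutation test p was 0.1, which is the lowest value possible with 3 mice in each group, and it became 0.2 after adjustment over the 6 members with reads. Ppy did not pass the filter on low counts and has no call in the edgeR fit. With no filter it was higher in PD fluid mice by 4.05 on the log2 scale (SE 0.95, edgeR adjusted p = 0.00185), a fit in which 47.8% of 17691 genes were called and 26.2% were called higher.

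Glucagon reads were seen in PD fluid mice and not in saline mice. Gcg (ENSMUSG00000000394, chr2:62474530-62483650 on GRCm38, minus strand) had 0 counts in each of saline mice 1, 2 and 3 and had 13, 3 and 7 counts in PD fluid mice 1, 2 and 3. The groups did not overlap, though the count of 3 in PD fluid mouse 2 lies at the floor of detection. The level in PD fluid mice was 0.307 ± 0.176 CPM (SD, n = 3 mice). With 23 PD fluid counts against 0, the lower end of the 95% exact binomial interval of the ratio was 5.62, for counting error only. Its p in the two-sided exact permutation test was also 0.1, or 0.2 after adjustment over the 6 members. Gcg was called higher by edgeR with no filter (adjusted p = 0.00677) and did not enter the filtered fit. Of all genes listed, 218 (0.983%) were at 0 in all saline mice and above 0 in all PD fluid mice, and among the members this was true of Gcg, 1 of 9.

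Somatostatin did not separate the groups. Sst (ENSMUSG00000004366, chromosome 16) had 0, 1 and 2 counts in saline mice 1, 2 and 3 and 2, 4 and 1 counts in PD fluid mice 1, 2 and 3. The groups overlapped, and the count passed the floor in PD fluid mouse 2 alone. The pooled ratio was 2.28, with a 95% exact binomial interval of 0.521 to 13.7. With no filter the log2 fold change was 1.09 (SE 1.32, edgeR adjusted p = 0.515). No difference in Sst was detected, and this interval is wide at 10 reads over the 6 mice.

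**Figure D1:**
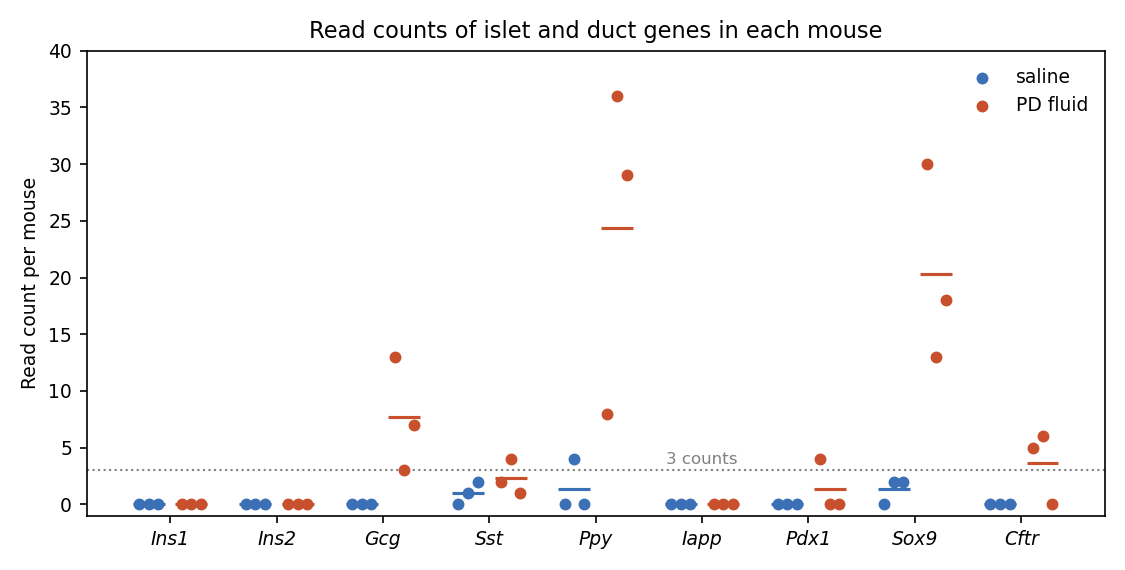
Read counts (vertical axis, reads per mouse) of the 9 islet and duct genes, with 1 point per mouse, a horizontal bar at the mean of 3 mice, and a dotted line at 3 counts. Ins1, Ins2 and Iapp lie at 0 in all 6 mice, while Gcg, Ppy and Sox9 are higher in every PD fluid mouse than in any saline mouse.

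Among the progenitor and duct members, Sox9 was higher in PD fluid mice. Sox9 (ENSMUSG00000000567, chr11:112782224-112787760 on GRCm38, plus strand) had 0, 2 and 2 counts in saline mice 1, 2 and 3 and 30, 13 and 18 counts in PD fluid mice 1, 2 and 3. No saline mouse passed the floor of 3 counts and every PD fluid mouse did. The mean level was 0.0583 ± 0.0507 CPM under saline and 0.821 ± 0.279 CPM under PD fluid (SD over 3 mice each). Sox9 was the member that passed the filter on low counts, 1 of 9, and it did so through the PD fluid mice, so that its call is not independent of that filter. Its log2 fold change was 3.76 (SE 0.71, edgeR adjusted p = 0.00102). In the two-sided exact permutation test its p was 0.1, or 0.2 after adjustment over the 6 members with reads, the same as for Ppy and Gcg. The pooled counts, 61 against 4, gave a ratio of 14.9 (95% exact binomial interval 5.53 to 56.4). With each mouse left out in turn the log2 fold change ran from 3.17 to 4.20 and was called each time.

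The other duct member and the progenitor factor were near the floor. Cftr (ENSMUSG00000041301, chromosome 6) had 0 counts in every saline mouse and had 5, 6 and 0 counts in PD fluid mice 1, 2 and 3. PD fluid mouse 3 was thus level with the saline mice, and the groups overlapped. With 11 pooled counts against 0, the lower end of the 95% exact binomial interval of the ratio was 2.45, which leaves out the spread between mice. With no filter its edgeR adjusted p was 0.0539, on the far side of the threshold, and its two-sided exact permutation p was 0.4. An antisense gene, Gm15592, overlaps exons of Cftr, and the library kit was not stated to keep strand, so reads of the 2 could not be told apart there. Pdx1 (ENSMUSG00000029644, chromosome 5) had 4 counts in PD fluid mouse 1 and 0 in the other 5 mice, so 1 library decides its value. Its edgeR adjusted p with no filter was 0.229.

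In saline mice 8 of the 9 members were at 3 counts or fewer in every mouse, with Ppy in saline mouse 2 the exception. In PD fluid mice Ppy and Sox9, 2 of the 9, were above 3 counts in every mouse. The 9 members together had 11 counts in saline mice and 179 in PD fluid mice, in groups of 71687442 and 72759777 total counts. Of the 6 members with any count, 3 (Ppy, Gcg and Sox9) were higher in every PD fluid mouse than in any saline mouse, and over all 17691 genes with a count this share was 29.8%. The same 3 members did not overlap when FPKM (fragments scaled to transcript length and library size) was used in place of CPM. From this count nothing is read that sets the members apart from other genes.

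Levels were compared between members on the length-corrected FPKM scale. In PD fluid mice Ppy was highest at 2.08 ± 1.30 FPKM (SD, n = 3 mice), with 0.610, 3.058 and 2.582 FPKM in PD fluid mice 1, 2 and 3. Gcg followed at 0.339 ± 0.200 FPKM, Sox9 at 0.200 ± 0.0718 FPKM and Sst at 0.133 ± 0.0894 FPKM (SD, n = 3 mice each). Cftr was at 0.0317 ± 0.0284 FPKM and Pdx1 at 0.0233 ± 0.0404 FPKM (SD, n = 3 mice each). Ppy lay above Gcg in all 3 PD fluid mice without overlap, whereas the values of Gcg and Sox9, of Sox9 and Sst, and of Cftr and Pdx1 overlapped. In saline mice Ppy was at 0.121 ± 0.210 FPKM, Sst at 0.0593 ± 0.0576 FPKM and Sox9 at 0.0140 ± 0.0122 FPKM (SD, n = 3 mice each), and these values overlapped. The deposited FPKM did not follow the counts to the same factor in every mouse, since FPKM per CPM of total counts varied 1.40-fold between mice for Gcg and 1.83-fold for Cftr, against 1.01-fold for Ppy, Sst and Sox9.

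The hormone reads were set beside those of 26 acinar genes in the same libraries. The acinar genes had 557 counts in saline mice and 972212 in PD fluid mice, where they made up 1.31%, 1.38% and 1.32% of the counts of PD fluid mice 1, 2 and 3. The 6 hormone genes had 7 counts in saline mice and 103 in PD fluid mice. Per 100000 acinar counts this was 6.66, 13.1 and 12.4 hormone counts in PD fluid mice 1, 2 and 3, of which none was insulin or amylin. In saline mice 1, 2 and 3 the hormone genes had 0, 5 and 2 counts beside 141, 222 and 194 acinar counts. Per 100000 acinar counts this was 0, 2252 and 1031 hormone counts. These saline ratios rest on 7 hormone counts. The ratios of saline mice 2 and 3 lay above those of all 3 PD fluid mice. With 141 acinar counts, the 0 of saline mouse 1 does not show a low ratio. The difference in ratio between the groups was not tested. All 24 acinar genes that were tested were called higher, with a median log2 fold change of 11.43, against a median of 0.02 over all tested genes. Of these 24 genes, 21 passed the filter on low counts through the PD fluid mice, as the saline mice did not all reach its minimum, so their tally is not independent of that filter. The same held for 828 of all 14005 tested genes. Cela2a, a pancreatic elastase, had 7, 21 and 6 counts in saline mice and 61967, 61658 and 63677 counts in PD fluid mice (log2 fold change 12.39, SE 0.23, edgeR adjusted p = 1.03e-11). Cpa1, a carboxypeptidase, and Reg1, a secreted protein of acinar cells, rose by 12.11 and 12.18 on the log2 scale (SE 0.20 each, edgeR adjusted p = 3.87e-12 and 3.71e-12). Amy2a2, a pancreatic amylase, rose by 14.84 (SE 0.17, edgeR adjusted p = 2.25e-13), a value that is uncertain because near-identical amylase genes can share its reads. The share of the islet hormone reads that came with acinar tissue was not tested.

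**Figure D2:**
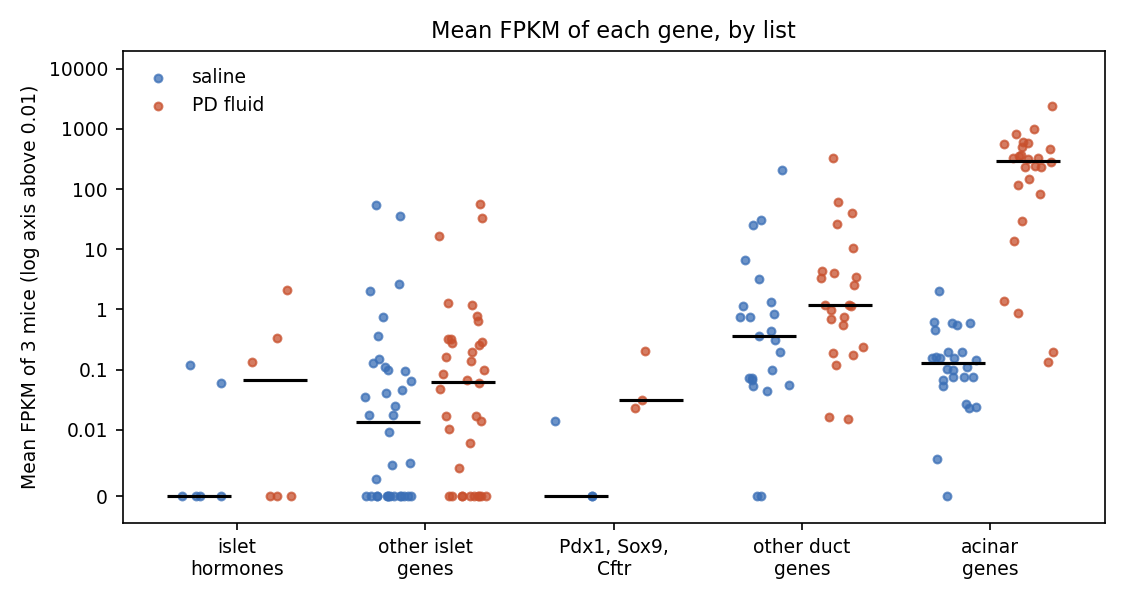
Mean FPKM over 3 mice (vertical axis, logarithmic above 0.01 and linear below) of each gene in 5 lists, with 1 point per gene and a black bar at the median of the list. The acinar median is 0.126 FPKM in saline mice and 299 FPKM in PD fluid mice, whereas the highest islet hormone, Ppy, reaches 2.08 FPKM.

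Among the other islet genes, some proteins of hormone granules were called higher, while others were called lower or not called. Of 36 further islet genes, 9 were tested, of which 6 were higher, 2 lower and 1 not called, with a median log2 fold change of 1.33. Over all tested genes, 31.1% were called higher and 27.8% lower. Of the 9, 3 (Scg3, Chgb and Pcsk1n) passed the filter through the PD fluid mice, so their calls are not independent of that filter. Scg3, a secretogranin of hormone granules, had 8, 5 and 4 counts in saline mice and 60, 32 and 26 counts in PD fluid mice, and rose by 2.71 on the log2 scale (SE 0.45, edgeR adjusted p = 4.25e-04). The granins Chgb and Scg2, which are shared by neurons and endocrine cells, rose by 2.40 (SE 0.62, edgeR adjusted p = 0.00658) and 1.71 (SE 0.30, edgeR adjusted p = 6.12e-04). Further granule genes were picked after their values were seen. Pcsk1n (1.33) and Cpe (0.65) were called higher, Scg5 was called lower (-0.63, edgeR adjusted p = 0.0496) and Pcsk1 was not called (-0.18). Chga, which was too low for the filter, had 13, 3 and 5 counts in saline mice and 8, 8 and 6 counts in PD fluid mice.

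Many factors and transporters of the endocrine pancreas were at or near 0. Of the 36 genes, 16 had 3 counts or fewer in every mouse, and 8 of these had none at all (G6pc2, Ucn3, Nkx2-2, Neurod1, Pax4, Neurog3, Rfx6 and Irx2). The beta cell zinc transporter Slc30a8, the beta cell factors Mafa and Nkx6-1, the potassium channel subunit Kcnj11, the endocrine factors Pax6 and Insm1, and ghrelin (Ghrl) were among the other 8. A few islet genes that were too low for the filter were picked, after their values were seen, from those that were higher in PD fluid mice. Pcsk2, the convertase that cleaves proglucagon and proinsulin, had 1, 0 and 0 counts in saline mice and 10, 8 and 11 counts in PD fluid mice. Abcc8, the sulphonylurea receptor, had 0, 1 and 0 counts in saline mice and 20, 6 and 6 counts in PD fluid mice. Peptide YY (Pyy), a close relative of Ppy made in islets and gut, was at 0 in the saline mice and had 3, 9 and 1 counts in PD fluid mice. Other low genes were not higher. Ptprn, also picked after its values were seen, had 13, 7 and 4 counts in saline mice and 8, 10 and 7 in PD fluid mice. Of the 28 genes on this list with a count, 13 did not overlap between the groups and were higher in PD fluid mice, and 2 were lower. Over all 17691 genes with a count these shares were 29.8% and 25.7%.

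Most duct and epithelial genes on the list were higher in PD fluid mice, and several of them mark the mesothelium as well. Of 23 further duct genes, 19 were tested, of which 15 were higher, 1 lower and 3 not called, with a median log2 fold change of 1.87. Of the 19, 5 passed the filter through the PD fluid mice, Cldn3 and Krt7 among them. The tight junction gene Cldn3 rose by 3.82 (SE 0.68, edgeR adjusted p = 7.01e-04), from 1, 0 and 3 counts in saline mice to 28, 17 and 18 counts in PD fluid mice. The keratin genes Krt7, Krt19 and Krt8 rose by 3.71, 3.66 and 3.58 (edgeR adjusted p = 1.50e-05, 5.17e-08 and 1.63e-07). The pancreatic factor Onecut1 stayed at 3 counts or fewer in every mouse. Krt8, Krt18 and Krt19 also belong to the list of 9 mesothelial markers, all of which were called higher. Msln (mesothelin) and Wt1, which mark the mesothelium, rose by 3.92 (SE 0.18, edgeR adjusted p = 2.20e-08) and 3.84 (SE 0.26, edgeR adjusted p = 4.80e-07). Of these 9 markers, 1 (Wt1) passed the filter through the PD fluid mice.

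**Figure D3:**
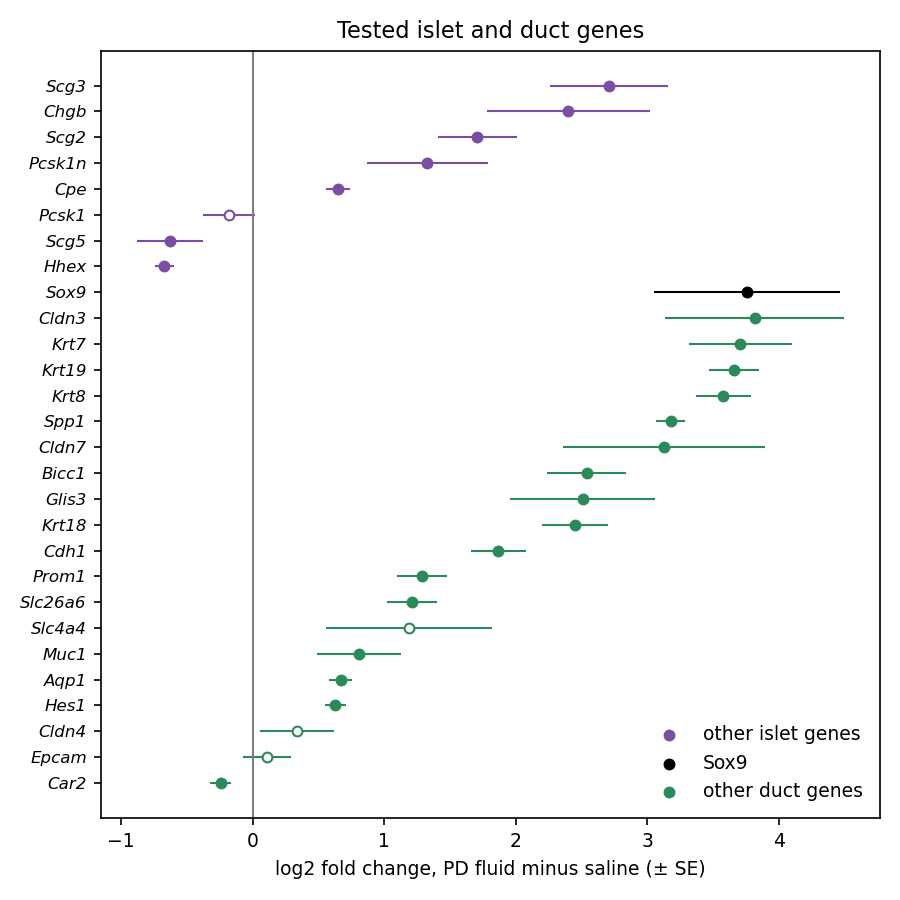
Log2 fold change of PD fluid against saline (horizontal axis, bars give the SE) for Sox9 and for further islet and duct genes that passed the filter, from the edgeR fit over 3 mice per group. Filled points have an adjusted p under 0.05 and open points do not, and Sox9 at 3.76 lies next to Cldn3 at 3.82 and Krt7 at 3.71.

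Markers of the other tissues in which Sox9 or gut hormones are used were read beside these results. The 8 fibroblast markers were all called higher, with a median log2 fold change of 3.05 and a summed level of 94.9 to 103 CPM in saline mice and 852 to 888 CPM in PD fluid mice. Lum, Col1a1, Col1a2 and Dcn, genes of the collagen matrix, rose by 3.91, 3.85, 3.40 and 3.19 on the log2 scale. The mesothelial list summed to 33.5 to 39.5 CPM in saline mice and 232 to 266 CPM in PD fluid mice. Of 7 cartilage genes 3 were tested and 2 called higher, Sox6 (1.77) and Comp (1.19), and the defining genes Col2a1, Acan and Col9a1 were at 0 in every mouse, with Matn1 at 3 counts or fewer. Their list summed to 3.52 to 4.22 CPM in saline mice and 6.62 to 8.38 CPM in PD fluid mice.

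Of 14 genes of the intestinal epithelium 4 were tested and 3 called higher, and 2 of the 4 (Fabp2 and Alpi) passed the filter through the PD fluid mice. Fabp2, a fatty acid binding protein of enterocytes, was at 0 in the saline mice and had 22, 13 and 30 counts in PD fluid mice. Alpi, intestinal alkaline phosphatase, had 0, 0 and 1 counts in saline mice and 16, 13 and 18 counts in PD fluid mice. Lyz1 was higher by 0.66, a value that is uncertain because it is nearly identical to Lyz2 and that turned to -0.09 when libraries were scaled to the endothelial markers. Cdx2, Tff3 and Gip, which are specific to the gut, were at 0 in every mouse, and Cdx1 was at 3 counts or fewer. This list summed to 104 to 120 CPM in saline mice and 166 to 186 CPM in PD fluid mice, nearly all of it Lyz1 at 110 ± 8.29 and 174 ± 10.1 CPM (SD, n = 3 mice each).

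Of 9 genes of enteric neurons and glia 8 were tested and 3 called higher. Of the 8, 4 passed the filter through the PD fluid mice, Vip among them. The genes called higher included Vip (2.79, edgeR adjusted p = 1.38e-04) and Ret (0.93, edgeR adjusted p = 1.17e-04), while Chat stayed at 3 counts or fewer. This list summed to 13.4 to 14.6 CPM in saline mice and 23.3 to 26.8 CPM in PD fluid mice. Of the 12 endothelial markers 11 were called higher, with Tie1, Robo4, Vwf and Flt1 up by 1.65, 1.55, 1.48 and 1.46 on the log2 scale. Of the 8 leukocyte markers 4 were higher (Itgam by 2.69, Adgre1 by 2.04, Lyz2 by 2.03 and Csf1r by 1.77 on the log2 scale) and 3 lower, and their sum was 7091 to 7363 CPM in saline mice and 10411 to 11062 CPM in PD fluid mice. The part of each of these cell types in the levels of Sox9, Cftr, Gcg and Ppy was not tested.

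**Figure D4:**
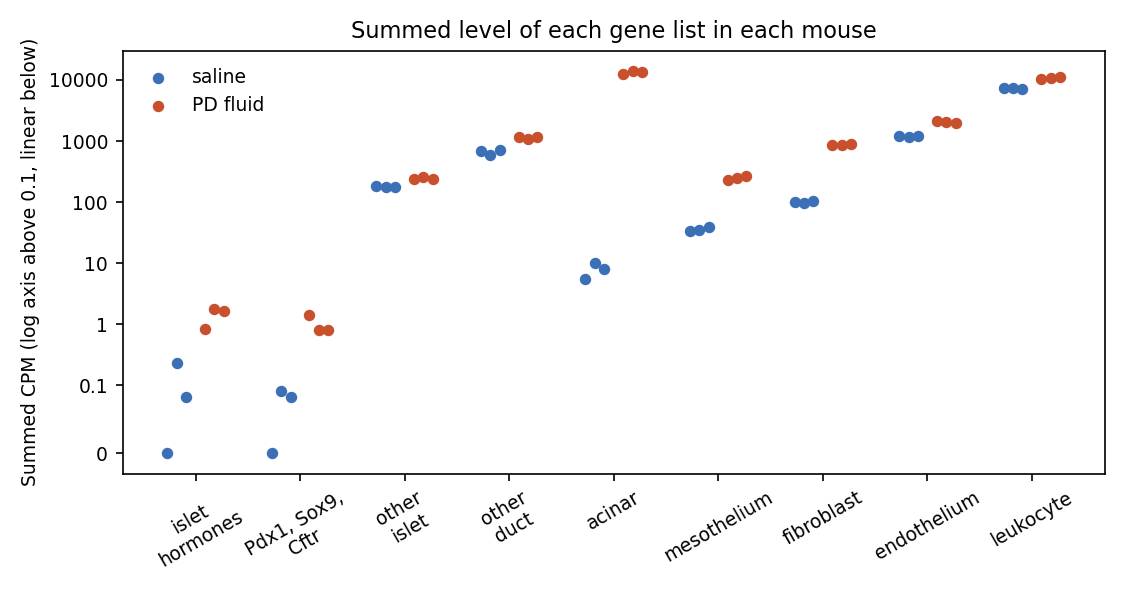
Summed CPM of each gene list in each mouse (vertical axis, logarithmic above 0.1 and linear below), with 1 point per mouse. The islet hormones sum to at most 0.231 CPM in saline mice and to 0.846 to 1.80 CPM in PD fluid mice, where the acinar list sums to 12694 to 13730 CPM.

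The 5 tested genes whose levels followed that of Sox9 most closely over the 6 mice were Fat1, Wnt2, Gpr39, Fgf1 and Bhlha15. Likeness was the mean absolute difference between log2 CPM profiles, each centred on its own mean, with a prior count of 2 added to every value, which damps differences of low counts. It was 0.14 for Fat1, 0.15 for Wnt2, 0.21 for Gpr39, 0.23 for Fgf1 and 0.24 for Bhlha15. Bhlha15 encodes the acinar factor MIST1. On this damped log2 scale the difference between PD fluid and saline mice was 2.71 for Sox9 and 2.43, 2.63, 2.89, 2.33 and 2.98 for the 5 genes, in the same order. Sox9 had only 0, 2 and 2 counts in saline mice, so its profile is largely the difference between the groups. A gene with a similar difference ranks as alike for that reason. Whether any of the 5 genes shares a cell of origin with Sox9 was not tested.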

How the data were processed

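RNA was sequenced from the CD31+ peritoneal cells of 3 saline mice and 3 PD fluid mice. The labels name fastp 0.18.0, Bowtie2 2.2.8, HISAT2, StringTie and RSEM without their roles, and the genome build is not given in the sources used here. The authors deposited an unnormalized read count per gene and mouse, and an FPKM value beside each count. The authors also derived group means of FPKM, a log2 ratio of these means, and a p-value and FDR from their own test, and none of these was used.

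Members were taken by symbol and mice grouped by their labels. Counts were fitted with edgeR 4.0.16 in R 4.3.3 (filterByExpr, TMM, quasi-likelihood test between the groups, no covariate), with Benjamini-Hochberg adjustment over all tested genes and a threshold of 0.05. The fit was tested on simulated data. Members are given by counts and CPM, and those with reads were put through two-sided exact permutation tests (scipy 1.17.1). The floor of detection was 3 counts. Intervals are exact and cover counting error only. Locations and transcripts came from GENCODE M21 and promoters from RefSeq GRCm38.p6. Genes named besides the members were, per list, the 4 with the largest change among called genes without overlap between groups. Those at 3 counts or fewer in every mouse and the 5 most like Sox9 were also named. Ptprc was named outside this rule because the sort was for CD45- cells. Any other is stated to be picked after its values were seen. A few genes that this rule names are not reported here. Members and lists were chosen with earlier results of these data known. Alternatives were DESeq2 1.42.0, limma-voom (limma 3.58.1), RLE size factors, scaling to 12 endothelial markers, no filter, the replicate block, FPKM, and leaving out each mouse.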

Additional observations from a re-analysis of the deposited data

How the results depend on the processing

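With no filter on low counts, 3 members were called higher (Ppy, Gcg and Sox9) in place of 1. With each mouse left out in turn, 1 to 2 members were called, and Sox9 was called each time. Ppy passed the filter and was called without saline mouse 1, 2 or 3 or PD fluid mouse 1. As Ppy had 0, 4 and 0 counts in saline mice, it passed through the PD fluid mice. Its calls in these fits are therefore not independent of that filter. The log2 fold change of Ppy was 7.66 without saline mouse 2, which holds all its saline reads, and 3.47 to 4.52 in the other 3 of these fits. DESeq2, limma-voom, RLE size factors and the endothelial scaling each called Sox9 alone among the members, with log2 fold changes of 3.85, 3.73, 3.75 and 3.04. Scaling to 12 endothelial markers moved the median of all tested genes to -0.73, with 1591 genes higher and 9215 lower in place of 4359 and 3887. Under it Lyz1 turned to -0.0865 and Comp (0.44) and Ret (0.18) lost their calls, as the scaling itself lowers every log2 fold change. Of the further islet genes 4 were then higher and 3 lower, and of the further duct genes 12 and 2. The replicate numbers do not pair the mice, since same-numbered deviations correlated at 0.10, 0.04 and -0.17 and 2 of 6 mice correlated best with their own number. With the replicate block 7909 genes and 1 member (Sox9, 3.74, edgeR adjusted p = 0.00377) were called. With 3 mice per group and at most 13 counts in a mouse, depth limits what can be said of Gcg, Sst, Pdx1 and Cftr.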
